A study of Drosophila melanogaster with 24 samples.

Results

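Troponin C is the calcium-binding subunit of the troponin complex of striated muscle, and the fruit fly Drosophila melanogaster has a family of 5 genes for it. Members were all probes whose platform gene symbol was TpnC41C, TpnC4, TpnC47D, TpnC73F or TpnC25D, which gave 2 probes of 23808. TpnC41C had 1 probe and TpnC4 had 1 probe, each printed as 2 spots, so the family was read from 4 of 47616 spots. For TpnC47D, TpnC73F and TpnC25D no probe was found by symbol, gene identifier, transcript accession or locus name, and these isoforms are not analysed here. TpnC41C (locus CG2981) and TpnC4 (locus CG12408) both lie on chromosome arm 2R in the RefSeq gene table of the current assembly. The sources used here name no genome build for the array, so no coordinates are stated.

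When calcium binds troponin C, the troponin complex shifts tropomyosin along the actin filament and myosin can pull. Flies use different troponin C isoforms in different muscles: TpnC4 is known from the stretch-activated indirect flight muscle, TpnC41C from flight muscle and the jump muscle of the adult, and TpnC47D and TpnC73F from larval and tubular muscle. Larval body-wall muscles form in the late embryo, most of them are broken down after pupation, and the adult muscles are built in the pupa.

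RNA of whole animals was hybridized on 2-colour spotted glass slides against RNA of 0-4 h embryos, which served as the common reference on every array. The 8 groups were embryos aged 4-8 h, 8-12 h and 12-16 h, larvae pooled over several larval ages, pupae at stages 1, 2 and 3, and young adult flies of both sexes. Each group had 3 arrays, lettered a, b and c. The sources used here give no strain, genotype or hours for the pupal stages, and the labels name no treatment. The labels call the hybridizations independent experiments without saying whether the animals were separate. P-values here therefore reflect how far arrays of the same stage lay apart, pooled over the 8 stages. That spread may be technical, and a stage with a wider spread gets the same SE as the others. Whole arrays of a stage were unevenly alike. Their pairwise r ran from 0.477 to 0.904 at pupal stage 2 and from 0.480 to 0.892 at pupal stage 3. The highest r of any other stage was 0.748, in adults. Whether the most alike arrays were separate samples was not tested, so n = 3 may overstate the replication at these 2 pupal stages.

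Of 24 arrays, 23 held ratios. Array c of pupal stage 1 did not and entered no comparison, so that stage rests on 2 arrays, both with the stage in Cy5. Values are log2 ratios, stage over reference, with every array's median set to 0 and the 2 spots of a probe averaged. A difference of 1 is a doubling. The deposited array medians ran from -1.89 to 2.38, and every difference below is relative to the median probe. Without centring, all probes had a median of 0.65 in 4-8 h embryos, of -0.97 and -1.60 in 8-12 h and 12-16 h embryos, of -1.08 for larvae, of -1.42, -1.76 and -0.37 in the pupal groups in order, and of -0.49 for adults. Arrays a and b of 4-8 h, a of 8-12 h and a of larvae had stood apart from the rest in earlier work on these data. A result that changed without these 4 is given so. Levels of different probes are not compared, because the ratio within an array removes them. In whole animals, fewer muscle cells and less RNA per muscle cell cannot be told apart.

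The TpnC41C probe stayed near the reference through the embryo and then climbed from the larva to the adult. At 4-8 h its 3 arrays read 0.09, 0.53 and 0.44, at 8-12 h 0.17, 0.27 and -0.17, and at 12-16 h 1.13, -0.92 and -0.44. The 3 embryo groups overlapped, and the probe passed in none of them (limma adjusted p = 0.599, 0.892 and 0.846). Larval arrays read 1.10, 0.65 and 2.11, all above 0 as means of 2 spots. The spots of larval array b read -0.58 and 1.88. Larvae overlapped 12-16 h embryos, where array a at 1.13 lay above the larval arrays at 1.10 and 0.65. The larval coefficient was 1.25 ± 0.34 (SE, n = 3 arrays, adjusted p = 0.0102), and it no longer passed without larval array c (0.87, adjusted p = 0.153) or without the 4 arrays that stood apart (1.26, adjusted p = 0.0794). Without centring it was 0.12 (adjusted p = 0.891).

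From pupal stage 1 onward every TpnC41C array lay above every larval array. Pupal stage 1 read 3.18 and 3.89 (3.64 ± 0.43, n = 2). Pupal stage 2 read 6.52, 6.79 and 6.58 (6.60 ± 0.34, n = 3), and pupal stage 3 read 6.17, 6.31 and 6.34 (6.31 ± 0.34). As array means, adults read 8.20, 8.11 and 8.35, the highest of all groups and without overlap with any other. Single spots did overlap. Array c of pupal stage 2 had spots at 5.41 and 7.74, and adult spots went down to 7.61 on array b and 7.45 on array c. The 2 spots of TpnC41C lay more than 1 apart on 7 arrays, by up to 3.28. The adult coefficient of 8.19 ± 0.34 (n = 3, limma adjusted p = 8.15e-12) corresponds to a ratio of about 292 over 0-4 h embryos. It was the highest coefficient of all 23808 probes in that comparison, although the probe ranked 16, 12 and 5 on adult arrays a, b and c. In order of level, 12-16 h was lowest, followed by 8-12 h, 4-8 h, larvae, pupal stage 1, pupal stage 3, pupal stage 2 and adults. As array means, only the embryo groups overlapped with their neighbours in this order. Larvae also overlapped the 12-16 h group, which is not their neighbour there.

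**Figure D1:**
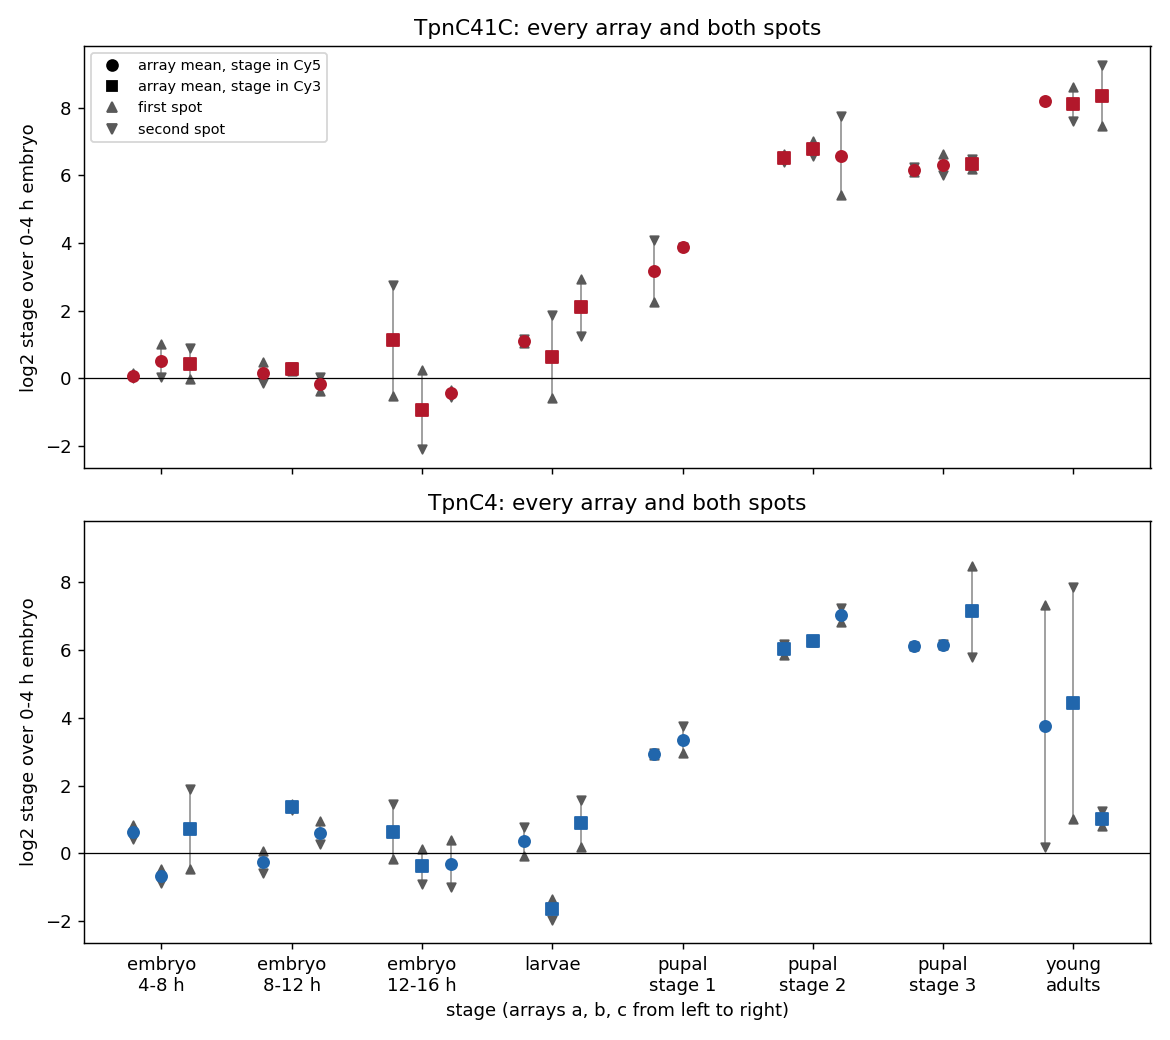
Log2 ratio of each stage over 0-4 h embryos for the TpnC41C probe (top) and the TpnC4 probe (bottom), on each of 23 arrays. Filled symbols are array means of 2 spots (circles, stage in Cy5; squares, stage in Cy3), and triangles joined by a line are the 2 spots. The adult arrays of TpnC41C sit between 8.11 and 8.35, whereas those of TpnC4 sit between 1.02 and 4.44 with wide gaps between spots on 2 of them.

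Steps between neighbouring stages were tested in the same fit. From 4-8 h to 8-12 h, from 8-12 h to 12-16 h and from 12-16 h to larvae, 0 of 2 troponin C probes passed in limma, against 0.0126%, 5.11% and 10.2% of all probes. At an unadjusted p under 0.05 the counts were 0, 0 and 1, the last being TpnC41C (1.36, adjusted p = 0.0699). TpnC41C rose by 2.39 ± 0.56 from larvae to pupal stage 1 (adjusted p = 0.0430; 0.995% of all probes passed in either direction) and by 2.96 ± 0.56 from pupal stage 1 to pupal stage 2 (adjusted p = 0.0166; 0.638% of all probes passed). The former call was kept only when the array left out was one of 12-16 h or larval array c. Over all single arrays left out its adjusted p ran from 0.0137 to 0.117, and without the 4 arrays that stood apart it was 0.179. Without centring neither step passed (adjusted p = 0.800 and 0.897). Neither step passed with the same-dye arrays averaged within pupal stages 2 and 3 (adjusted p = 0.0876 and 0.0829). The latter was lost without pupal stage 1 array a (2.60, adjusted p = 0.143), pupal stage 2 array b or c (adjusted p = 0.0567 and 0.117), or the 4 arrays (adjusted p = 0.0688). From pupal stage 2 to pupal stage 3 the probe differed by -0.29 ± 0.48 (95% interval -1.29 to 0.71, adjusted p = 0.906; 0.34% of all probes passed).

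From pupal stage 3 to adults the arrays of TpnC41C did not overlap, and the difference of 1.88 ± 0.48 did not pass (adjusted p = 0.0619; 1.18% of all probes passed in either direction). It passed with array weights (adjusted p = 0.00150), without 12-16 h array a or b (0.0161 and 0.0261) and without larval array c (0.0459). Quantile normalization between arrays turned its sign (-0.36, adjusted p = 0.889). From larvae to adults TpnC41C rose by 6.94 ± 0.47 (adjusted p = 1.00e-07), where 4.93% of all probes passed, and from 12-16 h embryos to adults it rose by 8.30 ± 0.47 (adjusted p = 3.71e-09), where 15.3% passed. The probe varied little around its stage means: its residual SD was 0.52, against a median of 0.75 over all probes.

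The TpnC4 probe was near the reference from the embryo through the larva, and rose in the pupa. Its arrays read 0.63, -0.67 and 0.70 at 4-8 h, -0.26, 1.37 and 0.61 at 8-12 h, and 0.64, -0.39 and -0.32 at 12-16 h. Larvae read 0.35, -1.66 and 0.89. These 4 groups overlapped, each held arrays on both sides of 0, and none passed against the reference (limma adjusted p between 0.607 and 0.970).

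Both pupal stage 1 arrays of TpnC4, at 2.93 and 3.36, lay above every embryo and larval array (3.19 ± 0.70, n = 2, adjusted p = 2.28e-03; 1.76 without centring, adjusted p = 0.0920). Pupal stage 2 read 6.02, 6.26 and 7.03 (6.42 ± 0.55, n = 3), and pupal stage 3 read 6.12, 6.16 and 7.15 (6.49 ± 0.55). The groups at pupal stages 2 and 3 overlapped and differed by 0.07 (95% interval -1.56 to 1.70, adjusted p = 0.987). At pupal stage 3, TpnC4 had the highest coefficient of all 23808 probes and TpnC41C ranked 3. On arrays a, b and c of that stage TpnC4 ranked 6, 6 and 10, and TpnC41C 5, 2 and 17. The steps into pupal stage 1 (3.35 ± 0.90, adjusted p = 0.0808) and into pupal stage 2 (3.23 ± 0.90, adjusted p = 0.133) did not pass, although the arrays of these groups did not overlap. The SE of TpnC4 was larger than that of TpnC41C, with a residual SD of 1.02 that 20.4% of probes exceeded.

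Counted over the pair of probes, both passed as higher than the reference at pupal stages 1, 2 and 3 and in adults, where 7.58%, 9.3%, 9.53% and 15.2% of all probes passed as higher. In larvae 1 of 2 passed as higher, against 8.76% of all probes. At 4-8 h, 8-12 h and 12-16 h 0 of 2 passed in either direction in limma, against 7.43%, 9.54% and 29.3% of all probes, and 0 of 2 had an unadjusted p under 0.05. Both differed among the 8 stages by limma's F-test (adjusted p = 1.17e-09 for TpnC41C and 3.63e-06 for TpnC4), which 21% of all probes passed. Without centring, both probes were lower than the reference at 12-16 h (TpnC41C -1.79 and TpnC4 -1.72), close to the shift of the median probe there. Over all probes, centring moved the calls at 12-16 h from 647 higher and 13871 lower to 3996 higher and 2973 lower, and those in adults from 1288 higher and 4416 lower to 3626 higher and 4563 lower. The dye term was -0.10 for TpnC41C and -0.05 for TpnC4 and did not pass for either probe (adjusted p = 0.652 and 0.910).

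Adult TpnC4 values depended on the spot. On adult array a the 2 spots read 7.33 and 0.19, on array b 1.00 and 7.88, and on array c 0.80 and 1.25. The array means were therefore 3.76, 4.44 and 1.02, and on arrays a and b no spot lay near its mean. The adult coefficient was 3.06 ± 0.55 (n = 3, limma adjusted p = 1.92e-04), with a spread pooled over stages. The adult array means had an SD of 1.81, against 0.53 and 0.58 at pupal stages 2 and 3. The SE of 0.55 therefore understates the adult spread, and the adult call was lost when only adult arrays entered the fit. Without arrays a and b, which leaves only array c, the coefficient was 0.88.

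Gaps of this size between spots of a probe were uncommon on these arrays. Gaps over 5 occurred for 67 probes on array a, 391 on b and 850 on c, and 8 of 23808 probes had them on both a and b. TpnC4 was 1 of these 8. Of the 38 probes on the troponin, actin, myosin and calcium-handling lists used below, 0 had such gaps on both arrays. On the other stages the spots of TpnC4 lay close together at pupal stages 2 and 3 except for array c of pupal stage 3 (8.50 and 5.80). On that array the stage was in Cy3 and the deposited ratios were 0.002 and 0.013 in steps of 0.001, so the log2 value is coarse. The adult TpnC41C ratios on arrays b and c, between 0.002 and 0.007, have the same coarse steps.

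Another of the 8 probes, CG42750, came 31 positions after TpnC4 in the numbering of the spots, and was picked out after its values were seen. Its spots read 1.05 and 7.32 on adult array a, 7.61 and 0.98 on b, and 6.56 and 7.45 on c. It was thus low at the 2 places where TpnC4 was high and high at the 4 places where TpnC4 was low. At each of the 6 places exactly 1 of the 2 probes lay between 6.56 and 7.88, and the other lay between 0.19 and 1.25. In pupae CG42750 was low on all spots, from -0.48 to 1.61 at pupal stage 2 and from -0.12 to 1.92 at pupal stage 3.

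The same displacement was looked for in other probes. As a mean of the 4 arrays lettered a or b at pupal stages 2 and 3, 40 spots exceeded 5, and these had 22 adult values below 2. Of the 22, 4 belonged to TpnC4, from which the distance of 31 positions was taken, so they say nothing further. For the other 18 the spot 31 positions later read above 5 in 0 cases. Only this distance in this direction was looked at, so the count cannot decide whether a single pair of probes was exchanged. Whether values of the 2 probes were exchanged on the adult arrays was not tested, as no source used here gives the layout of the slides. The adult level of TpnC4 is therefore reported by spot. As an alternative added after seeing the data, TpnC4 was given the higher and CG42750 the lower value at each adult place. The adult array means of TpnC4 were then 7.33, 7.75 and 7.0, against the 6.12 to 7.15 of pupal stage 3, which they overlapped. The adult coefficient became 7.32 ± 0.43 (limma adjusted p = 7.77e-10). The fall from pupal stage 3 described next turned to a difference of 0.80 ± 0.62 that did not pass (adjusted p = 0.633). The steps into pupal stages 1 and 2 passed (adjusted p = 0.0239 and 0.0493), although they compare no adult values. Their differences hardly moved, from 3.35 to 3.46 and from 3.23 to 3.13. Their SE fell from 0.90 to 0.71, as the spread is pooled over stages. These 2 calls follow from the choice of adult values and say nothing further about the pupal steps. This alternative takes the higher value by construction, and which reading holds for the adult was not tested.

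**Figure D2:**
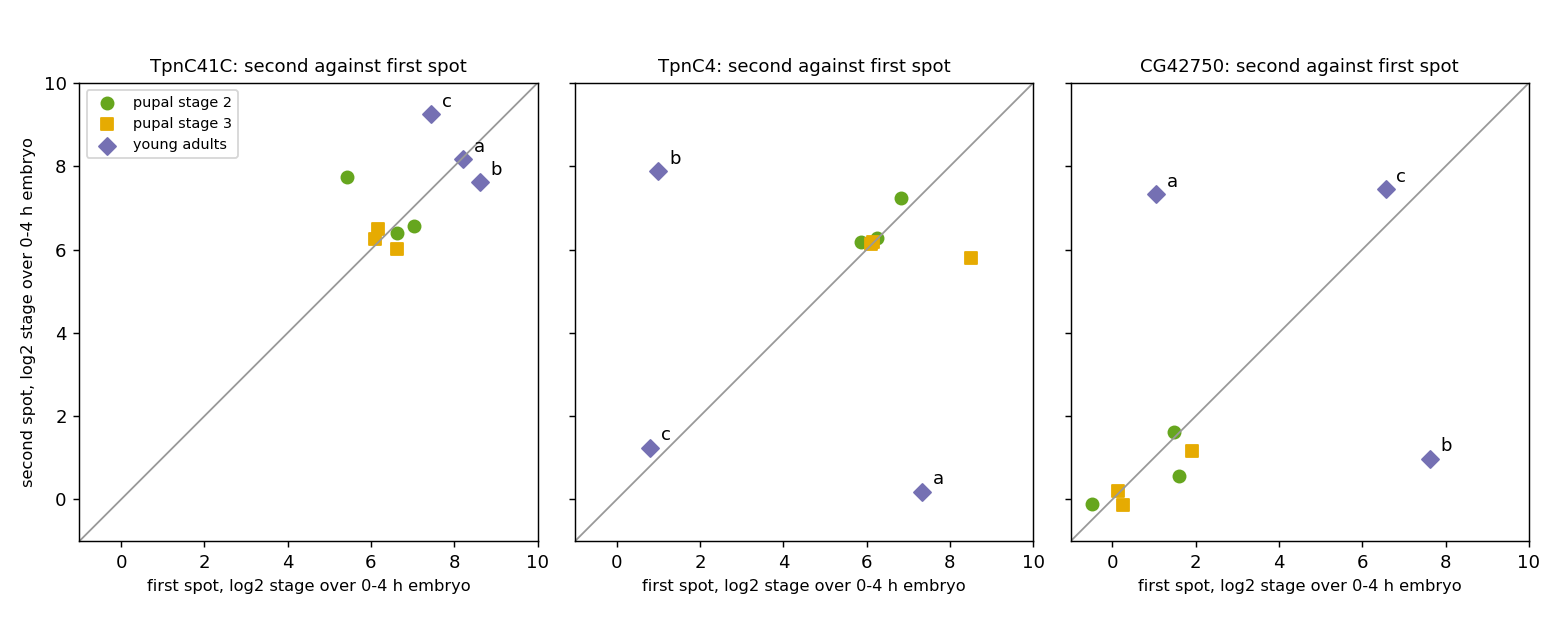
Second spot against first spot (log2 stage over 0-4 h embryos) for TpnC41C, TpnC4 and CG42750 at pupal stage 2, pupal stage 3 and in young adults, 1 point per array, adult arrays lettered; the line marks equal spots. Adult TpnC4 spots read 7.33 and 0.19 on array a and 1.00 and 7.88 on b, and those of CG42750 read 1.05 and 7.32 on a and 7.61 and 0.98 on b.

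With spots averaged, TpnC4 fell by 3.44 ± 0.78 from pupal stage 3 to adults (adjusted p = 0.0330), where 0.0882% of all probes passed as lower and TpnC4 ranked 23805 of 23808 from the top. All 3 adult array means lay below all pupal stage 3 arrays. The call was lost without adult array c (-2.43, adjusted p = 0.163), without pupal stage 3 array a, b or c (adjusted p = 0.0819, 0.0834 and 0.180), with either spot alone, and without the 4 arrays that stood apart (adjusted p = 0.0841). Averaging the same-dye pupal arrays also lost the call (-3.59, adjusted p = 0.115). Without adult arrays a and b the difference was -5.65. The differences of 3.22 ± 0.77 from larvae to adults (adjusted p = 0.0158) and of 3.10 ± 0.77 from 12-16 h to adults (adjusted p = 0.00984) rest on the same adult means. The larval comparison was lost without larval array b, adult array a or adult array b (adjusted p = 0.103, 0.0841 and 0.101), without the 4 arrays that stood apart (0.0527), with arrays scaled to one median absolute deviation (0.0984), with quantile normalization (0.0736), and with the first or second spot alone (0.137 and 0.284). The embryo comparison was lost without adult array a or b (adjusted p = 0.0577 and 0.0653), with arrays scaled (0.0600) and with the first or second spot alone (0.120 and 0.132). Both were lost with only the arrays of the stages compared (adjusted p = 0.266 and 0.189) and without adult arrays a and b (0.642 and 0.589). With the spots exchanged as above they were 7.50 and 7.38 (adjusted p = 4.43e-07 and 1.96e-07).

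Whether both isoforms changed by the same amount was tested by subtracting the TpnC41C value from every probe within each array. From 8-12 h to 12-16 h the change of TpnC4 minus that of TpnC41C was -0.39 ± 0.79 (95% interval -2.0 to 1.22, adjusted p = 0.881; 1.81% of all probes passed this test). From larvae to adults it was -3.72 ± 0.77 (95% interval -5.30 to -2.14, adjusted p = 4.37e-05), as TpnC41C rose by 6.94 and TpnC4 by 3.22. The larva-to-adult test was passed by 99.9% of all probes, a share so high that the call says little about TpnC4 itself. With the spread of this pair alone, rather than one shared over probes, the adjusted p was 3.87e-04. The value rests on the averaged adult spots of TpnC4: with the adult spots exchanged it turned to 0.57 ± 0.66 (adjusted p = 0.402).

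In larvae the changes against the reference differed by -1.41 (95% interval -2.54 to -0.28, limma adjusted p = 0.0375; 46.6% of all probes passed). With the pair's own spread the interval was -2.64 to -0.19 and the adjusted p 0.0588, which did not pass. In pupae they differed by -0.45 (95% interval -1.89 to 1.00) at pupal stage 1, -0.17 (-1.30 to 0.95) at pupal stage 2 and 0.19 (-0.94 to 1.31) at pupal stage 3. These intervals allow the isoforms to differ by about 1 log2 unit or more at each pupal stage. From pupal stage 3 to adults the difference in change was -5.32 ± 0.79 (adjusted p = 1.59e-03), where 44.8% of all probes passed in either direction. That value uses the split adult spots of TpnC4. Across the 8 stage coefficients the probes had a Pearson r of 0.84, and 0.98 over the 7 stages without adults, as a description of profiles that share all arrays.

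Genes that work with troponin C were set beside the isoforms. The partners measured were up, which encodes troponin T, Tm2, a tropomyosin, and tmod, the tropomodulin that caps thin filaments, with 5 probes for 3 of 5 genes asked for. At 12-16 h, when neither troponin C probe had passed, 3 of 5 probes were higher and 0 lower, where 16.8% of all probes were higher. Their median was 1.52 against 0.08 over all probes. The up probe was at 5.73 ± 0.64 (adjusted p = 1.11e-06) and Tm2 at 4.41 ± 0.58 (adjusted p = 8.00e-06). In adults 5 of 5 were higher, where 15.2% of all probes were, with a median of 2.54 against 0.06 over all probes. The values of tmod ranged from 1.55 to 2.54 there, and Tm2 reached 5.52 ± 0.58. Between these stages 2 of 5 were higher in larvae, 2 at pupal stage 1, 3 at pupal stage 2 and 2 at pupal stage 3, where the median was -0.04. Of all probes, 8.76%, 7.58%, 9.3% and 9.53% were higher at these stages in order. Without centring, 2 partner probes were higher and 1 lower at 12-16 h (median -0.16), and 3 were higher and 0 lower in adults. In that setting 647 of all 23808 probes were higher and 13871 lower at 12-16 h, and 1288 higher and 4416 lower in adults.

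Myosin and thick-filament genes had 20 probes for 10 of 14 genes. At 12-16 h 17 were higher and 0 lower (median 3.53), among them Prm, the paramyosin gene, whose 3 probes ran from 1.68 to 6.10, sls, a titin-like gene with 3 probes from 3.26 to 5.53, and the myosin light chain gene Mlc1 at 5.39 ± 0.60. Passing probes numbered 14 in larvae, 8 at pupal stage 1, 18 at pupal stages 2 and 3, and 19 in adults (median 4.86), all of them higher. Of all probes, 16.8% were higher at 12-16 h, 8.76% in larvae, 7.58%, 9.3% and 9.53% at pupal stages 1, 2 and 3, and 15.2% in adults. Several of the 20 probes belong to the same gene. Without centring, 12 were higher and 2 lower at 12-16 h (median 1.85), 0 higher and 1 lower at pupal stage 1, and 19 higher and 0 lower in adults. In that setting 647 of all 23808 probes were higher and 13871 lower at 12-16 h. At pupal stage 1 these counts were 164 and 8211, and in adults 1288 and 4416. The actin genes Act79B, Act87E and Act88F had 1 probe each. All 3 were higher at 12-16 h, at pupal stages 2 and 3 and in adults, against the same shares of all probes. Their median at pupal stage 1, where they did not pass, was -0.23. Without centring, 0 of 3 actin probes passed at 12-16 h or in any pupal stage, and 2 of 3 were higher in adults. The uncentred counts over all probes were 264 higher and 16339 lower at pupal stage 2, and 409 and 3858 at pupal stage 3.

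**Figure D3:**
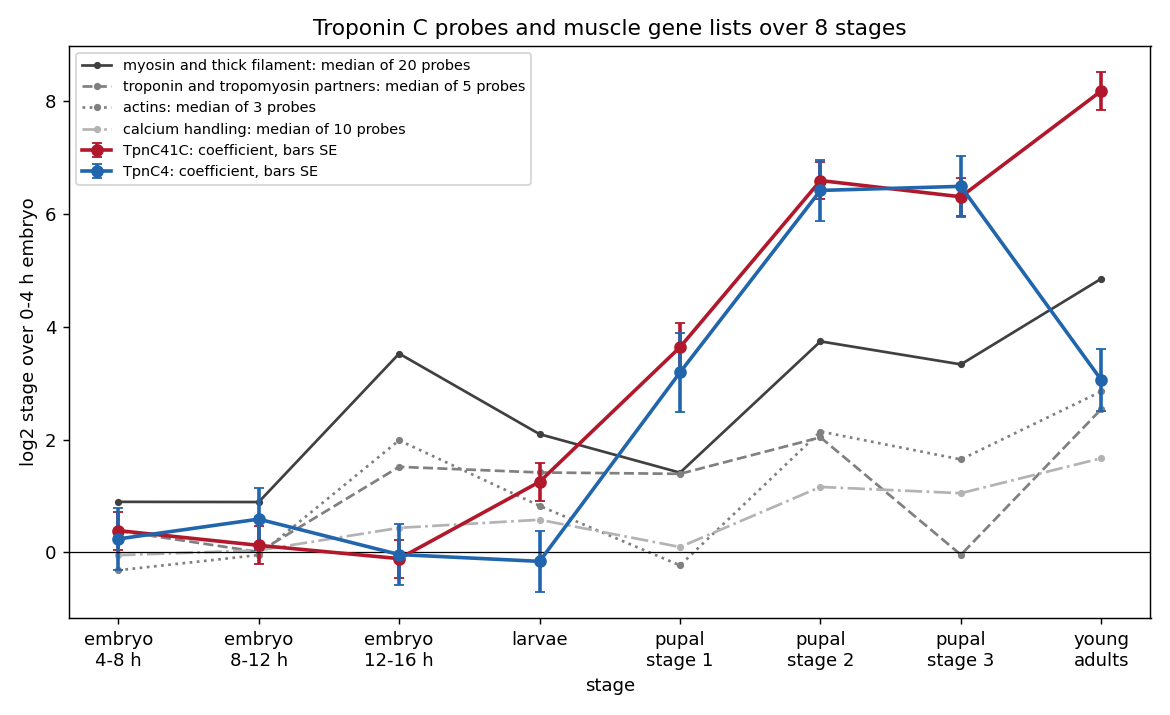
Coefficients of TpnC41C and TpnC4 (log2 stage over 0-4 h embryos, bars SE, n = 3 arrays and 2 at pupal stage 1) and medians of 4 muscle gene lists over the 8 stages. At 12-16 h the myosin list has a median of 3.53 and both troponin C probes are near 0; in adults TpnC41C is at 8.19 and the myosin list at 4.86. The adult TpnC4 point averages spots from 0.19 to 7.88.

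The flight muscle gene fln, which encodes the thick-filament protein flightin, was 1 of 3 probes of the myosin list that did not pass at 12-16 h and is shown because its time course resembles that of the troponin C probes. The other two were Mlc-c, a myosin light chain gene, and 1 of 3 probes of Strn-Mlck, both named after their values were seen. Its coefficient was 0.12 ± 0.40 at 12-16 h (adjusted p = 0.862) and -0.45 ± 0.40 in larvae (adjusted p = 0.454). It rose to 4.89 ± 0.40 at pupal stage 2, 6.34 ± 0.40 at pupal stage 3 and 7.22 ± 0.40 in adults. The other flight muscle marker, Act88F, was at 1.79 ± 0.28 at 12-16 h and 2.86 ± 0.28 in adults.

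The difference between the muscle lists and the isoforms was tested within arrays, by a test chosen after the values were seen and with each probe's own spread. Of the 38 list probes, 24 changed more than TpnC41C at 12-16 h and 0 changed less, where 11.6% of all probes changed more. Against TpnC4, 14 changed more and 0 less, where 3.55% of all probes changed more. Nearly all probes changed less than either isoform at pupal stage 2, and less than TpnC41C in adults. The counts for those comparisons therefore say little about the muscle genes. At pupal stage 2, 0 of 38 changed more and 36 changed less than TpnC41C, and 0 changed more and 34 less than TpnC4, where 99.9% and 99.8% of all probes changed less. In adults 0 changed more and 36 less than TpnC41C, where 100% of all probes changed less after rounding. Against the averaged adult spots of TpnC4, 10 changed more and 7 less, where 0.378% of all probes changed more and 85.5% less. All these differences share the values of the member subtracted.

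Calcium-handling genes moved less uniformly. Of 10 probes for 8 of 14 genes, 3 were higher at 12-16 h, 5 at pupal stage 2 and 5 in adults, with 0 lower at these stages, where 16.8%, 9.3% and 15.2% of all probes were higher and 12.5%, 16% and 19.2% lower. At pupal stage 1, 0 were higher and 2 lower, against 16.2% of all probes lower. Without centring, 1 was higher and 4 lower at both 12-16 h and pupal stage 2, and 4 were higher and 0 lower in adults. In that setting 647 of all 23808 probes were higher and 13871 lower at 12-16 h. At pupal stage 2 these counts were 264 and 16339, and in adults 1288 and 4416. In adults SERCA, the calcium pump of the sarcoplasmic reticulum, was at 3.16 ± 0.37 and RyR, its calcium release channel, at 2.71 ± 0.60. The 3 probes of Scp1, a sarcoplasmic calcium-binding protein, disagreed, at 7.56, 1.76 and 0.24 in adults. Other EF-hand calcium sensors, which share the calcium-binding fold with troponin C, had 10 probes for 9 of 16 genes. At most 1 of them was higher at any stage before the adult, and 3 were higher in adults (median 0.51), namely sunz at 2.81 ± 0.66, Acam, androcam, at 1.90 ± 0.45 and 1 of 2 probes of CG31345 at 1.5 ± 0.46, where 15.2% of all probes were higher. Without centring 1 of 10 was higher in adults (median -0.04), and 5 were lower at 12-16 h and 8 at pupal stage 2. Most of all 23808 probes were also lower at these 2 stages without centring, 13871 and 16339 in order. Regulators of muscle identity and fusion had 19 probes for 12 of 21 genes, with 4 higher and 1 lower at 12-16 h and 2 higher and 7 lower in adults. The shares of all probes were 16.8% and 12.5% at 12-16 h and 15.2% and 19.2% in adults, so the 4 of 19 at 12-16 h lay near the background. Without centring these regulators numbered 1 higher and 11 lower at 12-16 h and 0 higher and 6 lower in adults. The uncentred counts over all 23808 probes were 647 higher and 13871 lower at 12-16 h, and 1288 higher and 4416 lower in adults. The lower calls of the regulators at 12-16 h therefore lay near the background.

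Markers of tissues other than muscle also moved with stage. Muscle markers (Mlc1, Mlc2, up and Tm2, 4 of 4 probes) passed as higher at 12-16 h, in larvae, at pupal stages 2 and 3 and in adults, and 2 of 4 did at pupal stage 1. The 3 fat body probes were higher from larvae to adults, with medians from 4.28 to 7.70. The 3 testis probes were all higher at pupal stages 2 and 3 and in adults, with a median of 4.07 in adults. Of all probes, 16.8% were higher at 12-16 h, 8.76% in larvae, 7.58%, 9.3% and 9.53% at pupal stages 1, 2 and 3, and 15.2% in adults. Of 5 neuronal probes 3 were higher at 12-16 h and 1 in adults, where 16.8% and 15.2% of all probes were. Without centring 0 of 5 neuronal probes were higher at 12-16 h, and muscle markers passed for 1 of 4 in larvae and 0 of 4 at pupal stage 1. In that setting 647 of all 23808 probes were higher at 12-16 h, 208 in larvae and 164 at pupal stage 1. The part of changing tissue proportions in the troponin C values was not tested.

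The genes with the most similar profile were found by Pearson correlation over the 8 stage coefficients, among 3729 probes of 3488 genes that passed the F-test with values on all arrays. For TpnC41C they were CG2528 (r = 0.987), CG18662 (0.982), Vtld (0.981), CG4691 (0.980) and CG3581 (0.980), and 153 probes exceeded 0.9. Each lay at 1.17 or lower up to the larva and had its highest value in adults, from 2.80 for CG18662 to 4.86 for Vtld, below the 8.19 of TpnC41C. For TpnC4 they were Acp65Aa (r = 0.964), CG7214 (0.959), CG31206 (0.956), Cpr64Ac (0.954) and Cpr64Aa (0.941), and 16 probes exceeded 0.9. Acp65Aa, Cpr64Ac and Cpr64Aa encode cuticle proteins. Acp65Aa peaked at 6.86 at pupal stage 2 and was at 4.06 ± 0.71 in adults, and Cpr64Ac went from 5.74 to 1.28 ± 0.45. The adult point of TpnC4 enters this ranking, so the order holds for the averaged spots. All profiles share the same 23 arrays and reference, and the correlations are given as descriptions.

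**Figure D4:**
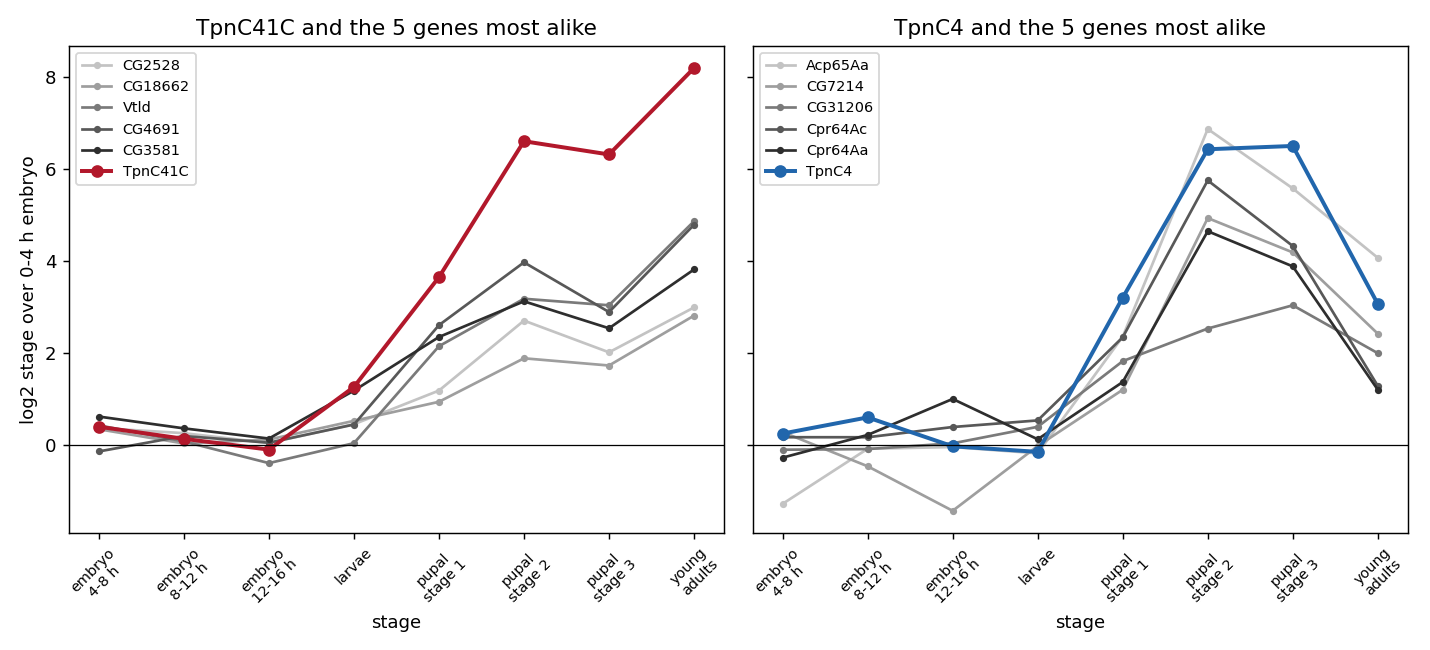
Stage coefficients (log2 stage over 0-4 h embryos) of TpnC41C and TpnC4 in colour, each with the 5 genes of most similar profile in grey. The genes beside TpnC41C have their highest values in adults, from 2.80 to 4.86; those beside TpnC4 have theirs at pupal stage 2 or 3, and are lower in adults.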

How the data were processed

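RNA was measured on 24 arrays of 8 stages. Per the labels' protocols, 20 µg of total RNA was labelled by random priming, hybridized at 55 °C for 16 h, scanned with ScanArray 3.1 and quantified with GenePix 4.0, and each array passed a limit on the spread between duplicate spots. For 23 arrays the authors deposited log2 ratios, Cy5 over Cy3; turned back to ratios, a median of 99.99% of values were whole steps of 0.001, within 0.01 of a step. The third array of pupal stage 1, lettered c, held log2 values of whole numbers (within 0.01) from 200 upward and was left out. The sources used here do not give the authors' background correction and normalization, no channel intensities were used, and the number of arrays limits the precision.

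Direction followed the dyes in the labels: 132 of 132 pairs of arrays with opposite dyes correlated below 0 as deposited, and 0 did once the sign was turned on arrays that had the stage in Cy3. Values at the limits of the scale (633, 0.0578%; 0 in the troponin C probes) were set to missing, arrays were centred on their medians, and spots 1984 positions apart were averaged.

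Tests used limma 3.58.1 in R 4.3.3, with 8 stage coefficients and a dye term per probe over 23 arrays (residual df 14, prior df 5.71), all two-sided, p-values being adjusted by Benjamini-Hochberg over the 23808 probes and read at 0.05. A stage against the reference is its coefficient against 0, which leaves out the reference's own spread. The pair test subtracted the TpnC41C value within each array and refitted all probes (prior df 15.25); since the subtracted values are shared by all probes, a fit with each probe's own spread was added. Simulated data for 23808 probes had independent normal noise and levels of 0, except for a small set of probes changed in a single stage. Changes of 4 on the log2 scale were called for 96% of changed probes in adults and 90% at pupal stage 1. Changes of 2 were called for 50% and 16%, and unchanged probes for 0.0381% and 0.0212%. In the real data 8189 probes passed in adults and some spots of a probe split widely, so these shares need not hold there. Symbols came from the platform annotation, where 13455 probes had 1 symbol, 153 several and 10200 none. Array letters are not said to pair arrays. Between stages, residuals of 77 same-letter pairs correlated at a median of 0.003 (-0.278 to 0.324), with 11 over 0.1. For 154 pairs of unlike letters the median was -0.002 (-0.274 to 0.329), with 25 over 0.1. Medians near 0 cannot exclude that some arrays were paired.

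Genes named are the troponin C probes, up to 4 genes of each list by the size of their coefficient, and for each probe the 5 genes of most similar profile. CG42750, and fln and Act88F at the stages before the adult, are named outside this rule. The members and lists were chosen with earlier results of these data known. Alternatives were other centring and scaling, no dye term, array weights, single spots, blocks, and leaving out arrays; leaving out the 4 arrays that stood apart, leaving out adult arrays a and b, the exchange of adult spots, the fit with own spread, the tests against each muscle probe and the look at CG42750 were added after seeing the data.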

Additional observations from a re-analysis of the deposited data

How the results depend on the processing

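Both troponin C probes passed as higher than the reference at pupal stages 2 and 3 under every alternative run. TpnC4 minus TpnC41C from larvae to adults kept its direction and call under all but 1. Keeping that call says little about TpnC4, since 99.9% of all probes passed the test in the main fit. With the adult spots of TpnC4 and CG42750 exchanged, chosen after seeing the data, TpnC4 minus TpnC41C turned to 0.57 (limma adjusted p = 0.402). TpnC4 from pupal stage 3 to adults then turned to 0.80. The counts under this exchange were 2 from larvae to pupal stage 1, 2 from there to pupal stage 2 and 0 from pupal stage 3 to adults. The TpnC4 calls gained at the pupal steps came with a smaller pooled SE and nearly unchanged differences. The counts that follow are of 2 probes, and the cause of a lost call was not tested. The 2 arrays of pupal stage 1 and the adult spots of TpnC4 limit the steps that use them, and no channel intensity was used. Of 683 recomputed counts over all probes, 166 moved by more than 1.5 times; those of adults against the reference ran from 3029 to 9338 (8189 as reported), of larvae from 0 to 7727 (5590) and of pupal stage 1 against larvae from 0 to 817 (237).

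Without centring, the counts were 2 at 12-16 h, 0 in larvae, 1 at pupal stage 1, and 0 for the steps from larvae to pupal stage 1, on to pupal stage 2, and from pupal stage 3 to adults. Both calls at 12-16 h were lower than the reference (-1.79 and -1.72), close to the shift of the median probe (-1.60). In that comparison 14518 of 23808 probes were called without centring. Directions turned for TpnC4 at 8-12 h (-0.46), from 4-8 h to 8-12 h (-1.33) and from 12-16 h to larvae (0.42), and for TpnC41C at 8-12 h (-0.93) and from pupal stage 2 to 3 (1.04). With arrays scaled to one median absolute deviation, counts were 0 for larvae to pupal stage 1 and for pupal stage 3 to adults, and 1 for larvae or 12-16 h to adults. Under that scaling TpnC41C turned at 8-12 h (-0.0060), 12-16 h (0.0135) and between them (0.0195), and TpnC4 at 12-16 h (0.0343), in larvae (0.0346), between these (0.0003) and from pupal stage 2 to 3 (-0.70). Quantile normalization gave 0 for larvae to pupal stage 1 and 1 for larvae to adults, and turned TpnC4 from 12-16 h to larvae (0.0403), TpnC41C from pupal stage 2 to 3 (1.18) and TpnC41C from pupal stage 3 to adults (-0.36).

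Array letters are shared across stages but are not said to pair arrays, so the letter was used as a replicate block only as an alternative. Residuals of same-letter arrays correlated from -0.278 to 0.324. With that block, counts were 0 from larvae to pupal stage 1 (TpnC41C 2.46, limma adjusted p = 0.0524) and 0 from pupal stage 3 to adults (TpnC4 -3.46, adjusted p = 0.0508), and TpnC4 at 12-16 h turned to 0.0341. The pair differences under the block were -3.72 from larvae to adults and -0.39 from 8-12 h to 12-16 h, and it changed no other troponin C call.

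From larvae to pupal stage 1 the count was 0 with no dye term, array weights, either spot, the 4 arrays that stood apart as a block or left out, pupal arrays a and b averaged (stages 2 and 3), or the compared stages alone. The first spot gave 0 in larvae, 1 at pupal stage 1, 0 for the steps to pupal stage 2 and from pupal stage 3 to adults, and 1 from larvae or 12-16 h to adults; it turned TpnC4 at 4-8 h (-0.17) and 12-16 h (0.24). The second spot gave the same counts except 2 at pupal stage 1, and turned TpnC41C at 12-16 h (0.0006) and TpnC4 from 4-8 h to 8-12 h (-0.16), from 12-16 h to larvae (0.27) and from pupal stage 2 to 3 (-0.20). Array weights gave 2 from pupal stage 3 to adults and turned TpnC4 (0.0127) and TpnC41C (0.0461) at 12-16 h. The block of 4 arrays gave 0 in larvae, 1 at pupal stage 1 and 1 in adults (TpnC4 2.62, adjusted p = 0.0776), and turned TpnC4 from 12-16 h to larvae (0.0345). Averaged pupal arrays, which shared a dye within their stage, gave 0 for the steps to pupal stage 2 and from pupal stage 3 to adults. The compared stages alone gave 0 in larvae, 1 in adults (TpnC4 3.25, adjusted p = 0.109), 0 for both those steps, and 1 from larvae or 12-16 h to adults.

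Chosen after seeing the data, leaving out the 4 arrays gave 0 in larvae, 0 for both those steps and 1 from larvae to adults; leaving out adult arrays a and b gave 1 in adults and 1 from larvae or 12-16 h to adults. With each single array left out in turn, counts ran from 0 to 1 in larvae, from 12-16 h to larvae, to pupal stage 1 and to pupal stage 2, from 0 to 2 from pupal stage 3 to adults, and from 1 to 2 from larvae or 12-16 h to adults. The pair difference ran from -4.50 to -2.61 from larvae to adults and from -0.85 to 0.0632 from 8-12 h to 12-16 h. TpnC4 ran from -0.0222 to 0.67 at 4-8 h, -0.35 to 0.16 at 12-16 h, -0.66 to 0.62 in larvae, -0.0921 to 0.76 from 4-8 h to 8-12 h, -0.64 to 0.68 from 12-16 h to larvae and -0.33 to 0.51 from pupal stage 2 to 3. TpnC41C ran from -0.68 to 0.35 at 12-16 h and -0.79 to 0.20 from 8-12 h to 12-16 h.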

Other observations

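Array c of pupal stage 1, which held a signal and no ratio, entered no comparison. On it the 2 spots of TpnC41C read 898 and 303 on a linear scale, above 89.2% and 10.7% of all spots. Those of TpnC4 read 468 and 231, above 59.9% and 0.13% of all spots. Its highest absolute correlation with any ratio array was 0.102.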
